A study of Mus musculus with 2 samples.

Results

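The genes described here encode splicing factors of the serine/arginine-rich (SR) and heterogeneous nuclear ribonucleoprotein (hnRNP) families, followed in Ago2-bound RNA of a mouse Sertoli cell line. Members were every row of the gene tables whose symbol began with Srsf or Sfrs and a digit, or with Hnrnp or Hnrp. This gave 32 of 22609 gene rows, 12 of them SR and 20 hnRNP. Of these, 31 had at least 20 reads summed over both libraries and were followed further, as 11 SR and 20 hnRNP genes among 12186 genes that passed the same filter. The member left under the filter was Srsf12, with 2 reads after the mimic and 0 after the scramble. Some rows carry older symbols: Sfrs18 is now called Pnisr, Hnrpdl is Hnrnpdl and Hnrpll is Hnrnpll.

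The study asked which transcripts associate with Ago2, the Argonaute protein that holds the guide miRNA, when miR-471-5p is raised in Sertoli cells, the nurse cells of the testis. TM4 cells, an established mouse Sertoli cell line, received either a miR-471-5p mimic or a scramble oligonucleotide, and Ago2 was immunoprecipitated from both after 48 h. Each condition has 1 library, so no difference has a replicate check and no test between conditions was possible. Both libraries are Ago2 precipitates and no unprecipitated input was analysed here, so a change in Ago2 association and a change in the amount of an mRNA cannot be told apart, nor can fewer cells of a type and less RNA per cell. No animals are involved, and the transgenic mice of the study were not measured in these libraries.

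SR proteins carry RNA recognition motifs (RRMs) and a tail of arginine and serine dipeptides. They bind exonic enhancer sequences and help the spliceosome to recognise splice sites. The hnRNPs are a less uniform set of abundant nuclear RNA-binding proteins that coat nascent transcripts, and many of them silence splice sites that SR proteins favour. Several members of both families shuttle to the cytoplasm and act on mRNA export, stability and translation. Many also limit their own production by splicing their own transcripts into forms that nonsense-mediated decay removes.

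The libraries were close in depth, with 18628310 (mimic) and 18717225 (scramble) reads on genes, and 15227 and 15134 genes detected. A level of 3 reads corresponded to 0.161 counts per 1000000 reads on genes, after scaling (CPM), in either library. Of 15 Sertoli markers, 14 were in the tables, 6 passed the filter and Gata1, Fshr and Krt18 were at 0 in both libraries. Sox9, a transcription factor of testis determination, had 1228 mimic and 1070 scramble reads. Summed levels of the Sertoli list were 6610 CPM after the mimic and 4546 CPM after the scramble, most of it Vim (121464 and 83153 reads). The peritubular myoid list of 5 genes summed to 4249 and 5816 CPM, most of it Acta2 (73076 and 101778 reads). Tagln had 6252 and 6778 reads, whereas Myh11 (6 and 6), Des (7 and 7) and Cnn1 (11 and 17) had few. The Leydig, germ cell and macrophage lists each summed to less than 8 CPM in either library. The Sertoli label therefore rests on part of its list, and the part of these marker differences in the results that follow was not tested.

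The miRNA is shown first because the results turn on how far the members carry its match. In the mature strand, as RefSeq gives it, capitals mark the seed, bases 2 to 8 from the 5′ end.
miR-471-5p: uACGUAGUauagugcuuuucac
The seed pairs with the letters ACTACGT in an mRNA (7mer-m8) and its inner part with CTACGT (6mer). Only the sense strand of annotated coding regions and 3′-UTRs was searched, and every 7mer-m8 match also holds the 6mer. No member of the 31 held the 7mer-m8 letters in either region. Of the 11767 tested genes with an annotated coding region, 183 (1.56%) held them in the 3′-UTR and 511 (4.34%) in the coding region. The 6mer occurred in the 3′-UTR of 2 of 31 members (6.45%, against 6.76% of those 11767 genes) and in the coding region of 2 others (6.45%, against 16.3%). These matches are printed because they are all the members' matches, and capitals mark the 6mer in a window of 22 bases of the sense strand.
Srsf1: caacgactgccgcatCTACGTg
Srsf9: gggcgacgggcgcatCTACGTg
Hnrnpa0: catcagtcactttttCTACGTg
Hnrnpr: cccagccccttgctcCTACGTc
Srsf12: ccagcatggactgggCTACGTg
Coordinates are those of the 6 matched bases on GRCm38. The Srsf1 match starts at base 54 of a coding region of 762 bases (chr11:88047892-88047897, plus strand, exon 1 of 5). The Srsf9 match starts at base 51 of 669 coding bases (chr5:115327359-115327364, plus strand, exon 1 of 4). These 2 windows come from paralogous genes and have the same base at 17 of 22 positions, including the last 12. The Hnrnpa0 match lies at base 1227 of a 3′-UTR of 1517 bases (chr13:58126164-58126169, minus strand, exon 1 of 1). That of Hnrnpr lies at base 12832 of a 3′-UTR of 19419 bases (chr4:136352860-136352865, plus strand, exon 11 of 11), the longest 3′-UTR among the members. The match of Srsf12, the gene without measurable reads, lies at base 748 of 2047 (chr4:33232041-33232046, plus strand, exon 3 of 3). A match is a description of these letters and not a measured binding site.

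Most members were well covered in both precipitates. Levels ran, in CPM, from 2.36 (mimic) and 2.57 (scramble) for Hnrnph3 to 659 and 648 for Hnrnpu, a scaffold protein that binds RNA and chromatin. Levels between genes were compared per length, as CPM per kilobase of annotated exons (RPKM). On this scale Hnrnpa2b1 was highest, with 218 RPKM after the mimic and 161 after the scramble, followed by Hnrnph1 with 111 and 120. Hnrnpl (101 and 76.2), Hnrnpa0 (95.1 and 81.1) and Hnrnpab (96.9 and 77.7) came next and were close to each other. The highest SR gene was Srsf2, with 79.2 and 76.7 RPKM, and Srsf4 followed with 59.7 and 50.4. The lowest members past the filter were Hnrnph3 (0.963 and 1.05 RPKM) and Hnrnpr (1.66 and 2.07), the latter over an annotated exon length of 21696 bases. Both families therefore spanned a wide range, and the order of neighbours has no replicate error to be judged against.

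**Figure D1:**
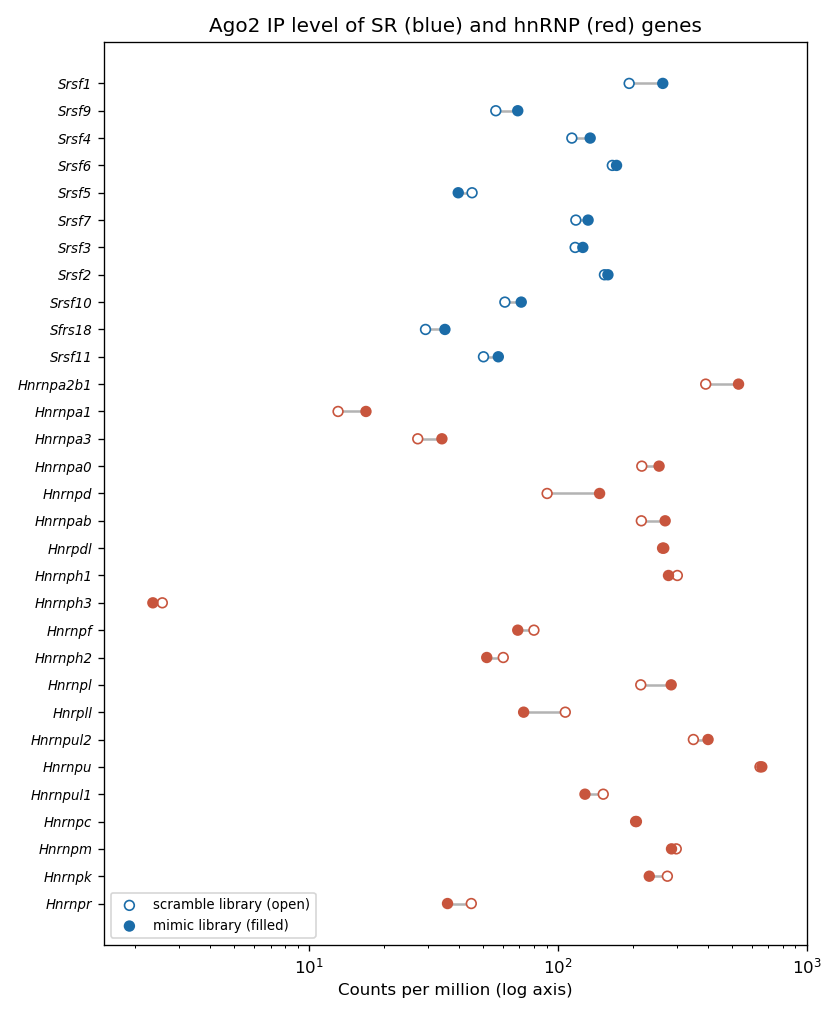
Levels of the SR and hnRNP genes in CPM (log axis), with open points for the scramble library and filled points for the mimic library, 1 library each. In most genes the 2 points lie close together, from about 2 CPM for Hnrnph3 to 659 and 648 CPM for Hnrnpu.

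The SR genes as a group were slightly higher in the mimic precipitate. Each difference is given as the log2 ratio of mimic to scramble after library scaling, with an exact 95% interval that covers counting error only. Of 11 SR genes, 10 had a log2 ratio above 0, where 49.9% of all tested genes did. Short coding regions went with high ratios over the whole table, and 6 of 11 were above 0 after a fit on coding length and 7 of 11 after a fit on length and GC content, as described further on. The interval lay above 0 for 8 of them (background 31.5%) and below 0 for 1 (background 32.5%). None passed 1.5-fold in either direction, where 11.7% of all tested genes were at least 1.5-fold higher and 9.11% at least 1.5-fold lower. Most members are deep, and among the 6849 tested genes with at least 1000 reads 46.8% had a log2 ratio above 0, with the interval above 0 in 35.3% and below 0 in 41.6%. Of those deep genes 7.23% were at least 1.5-fold higher and 5.68% at least 1.5-fold lower.

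The SR proteins with paired RRMs include the founding member of the family. Srsf1, which encodes a splicing activator that also shuttles and acts in translation, had 4923 mimic and 3606 scramble reads. Its log2 ratio of 0.45 (95% interval 0.39 to 0.51) was the highest of the SR genes and stood at the 82.8th percentile of all tested genes. Srsf9, its closest relative here and the other gene with a coding 6mer, had 1287 and 1050 reads, a log2 ratio of 0.29 (0.17 to 0.41). Srsf4 encodes an SR protein with a long arginine/serine tail and had 2515 and 2122 reads, 0.24 on the log2 scale (0.16 to 0.33). Srsf6 was nearly equal in both libraries at 3210 and 3086 reads, and its interval held 0 (0.056, -0.016 to 0.13). Srsf5 was the exception of the whole family, with 742 mimic and 843 scramble reads and a log2 ratio of -0.18 (-0.33 to -0.041). The median of these 5 genes was 0.24. After the fits on coding length and on length and GC content, Srsf1 had 0.26 and 0.43, Srsf4 0.25 and 0.12, Srsf5 -0.35 and -0.35, and Srsf9 0.060 and -0.087, so that the direction of Srsf9 turned under the second fit.

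The SR proteins with a single RRM differed less between libraries. Srsf7, whose product carries a zinc knuckle beside its RRM, had 2467 and 2202 reads (log2 ratio 0.16, 0.080 to 0.25). Srsf3, the smallest SR protein, which also takes part in mRNA export and alternative polyadenylation, had 2350 and 2188 reads (0.10, 0.018 to 0.19). Srsf2, a mainly nuclear SR protein that binds exonic enhancers, had 2964 and 2869 reads, and its interval held 0 (0.046, -0.028 to 0.12). All 3 had small positive log2 ratios. After the fit on coding length all 3 were below 0 (Srsf7 -0.047, Srsf3 -0.24 and Srsf2 -0.19), and after the fit on length and GC content Srsf7 was at 0.066, Srsf3 at -0.084 and Srsf2 at -0.30.

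The remaining SR rows moved to a like extent. Srsf10, whose product represses splicing when dephosphorylated, had 1329 mimic and 1142 scramble reads (log2 ratio 0.22, 0.10 to 0.33). The SR-related Srsf11, which encodes an arginine/serine-rich protein linked to the U2AF splice site factor, had 1075 and 937 reads (0.20, 0.070 to 0.33). Sfrs18, now Pnisr, encodes an SR-related nuclear protein and had 656 and 548 reads (0.26, 0.093 to 0.43). All 3 intervals lay above 0. After the fit on coding length, Srsf10 had 0.039, Srsf11 0.22 and Sfrs18 0.39. After the fit on length and GC content they had 0.26, 0.26 and 0.50. Srsf12 had too few reads, 2 and 0, for a ratio.

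Among the hnRNP genes, equal numbers lay on either side of 0, and single subfamilies differed from each other. Of 20, 10 had a log2 ratio above 0 and 10 below, where 49.9% of all tested genes were above 0. The interval lay above 0 for 8 and below 0 for 8, against 31.5% and 32.5% of all tested genes. Among tested genes with at least 1000 reads these shares were 35.3% and 41.6%. Hnrnpd alone passed 1.5-fold, and it was higher in the mimic precipitate. Of all tested genes 11.7% were at least 1.5-fold higher and 9.11% lower (7.23% and 5.68% of genes with at least 1000 reads).

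The hnRNP A genes, whose products have 2 RRMs and a glycine-rich tail and often silence exons, were higher in the mimic library in all 4 cases, with a median log2 ratio of 0.35. Hnrnpa2b1, which is also known for binding and sorting miRNAs, had 9924 mimic and 7321 scramble reads, a log2 ratio of 0.44 (0.39 to 0.48). Hnrnpa1, the best-known splicing silencer of the set, had 316 and 244 reads (0.37, 0.13 to 0.62). Hnrnpa3, involved in mRNA trafficking, had 638 and 510 reads (0.32, 0.15 to 0.49). Hnrnpa0, encoded by a single exon and carrying a 6mer match in its 3′-UTR, had 4758 and 4053 reads (0.23, 0.17 to 0.29). None of these 4 intervals reached 0, and none of the genes passed 1.5-fold, while the fit on length and GC content took Hnrnpa0 to -0.041. Reads of Hnrnpa1 and Hnrnpa3 are uncertain, because 46.4% and 28.2% of the 50-base words of their transcripts also occur in transcripts of 19 and 45 other annotated genes.

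The related AB, D and DL genes did not move together. Hnrnpd encodes AUF1, a protein that binds AU-rich elements of 3′-UTRs and controls mRNA decay. It had 2744 mimic and 1688 scramble reads and was 1.62-fold higher after the mimic. Its log2 ratio of 0.70 (0.61 to 0.79) was the highest of all 31 members and stood at the 91.5th percentile of all tested genes. Hnrnpab, a CArG box-binding relative, had 5033 and 4036 reads (0.32, 0.26 to 0.38). Hnrpdl, the paralogue of Hnrnpd, was nearly equal at 4915 and 4966 reads (-0.016, -0.073 to 0.042). Hnrnpd (chr5:99955935-99978938, minus strand, GRCm38) and Hnrpdl (chr5:100033577-100039664, minus strand) lie near each other on chromosome 5, and only the first differed between libraries beyond counting error.

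The F and H genes encode proteins with quasi-RRMs that bind runs of guanosine, and all 4 had a lower level after the mimic, with a median log2 ratio of -0.17. Hnrnph1 had 5191 mimic and 5631 scramble reads (log2 ratio -0.12, -0.17 to -0.063). Hnrnph2, on the X chromosome, had 966 and 1125 reads (-0.22, -0.35 to -0.095). Hnrnpf had 1287 and 1494 reads (-0.22, -0.32 to -0.11), with 51.9% of its 50-base words shared with transcripts of other genes. Hnrnph3, with 44 and 48 reads, was too shallow to place (-0.13, -0.75 to 0.49).

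Hnrnpl and Hnrpll are paralogues that differed from each other in direction. Both encode proteins that bind CA-rich RNA, and Hnrpll is known for directing alternative splicing of CD45 in lymphocytes. Hnrnpl had 5322 mimic and 4014 scramble reads (log2 ratio 0.41, 0.35 to 0.47). Hnrpll had 1359 and 1997 reads, 1.47-fold lower after the mimic (-0.56, -0.66 to -0.46), and was the lowest of all members, at the 9.91th percentile of all tested genes. The 2 genes thus lay on opposite sides of 0 with intervals far apart. Neither holds a 6mer match in the searched regions.

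The U genes encode large proteins with a SAP domain that binds DNA. Hnrnpu was equal within counting error at 12307 and 12097 reads (log2 ratio 0.024, -0.012 to 0.061), and it was the deepest member, so its interval is the narrowest. Hnrnpul2 had 7485 mimic and 6532 scramble reads (0.20, 0.15 to 0.24). Hnrnpul1 had 2397 and 2837 reads and lay on the other side of 0 (-0.24, -0.32 to -0.16).

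The last set holds structurally unlike proteins. Hnrnpc, which binds uridine tracts and helps to package nascent RNA, was equal within counting error at 3857 and 3829 reads (log2 ratio 0.0099, -0.055 to 0.075). Hnrnpk, whose KH domains bind cytidine-rich RNA, had 4345 and 5135 reads (-0.24, -0.30 to -0.18). Hnrnpm had 5338 and 5575 reads (-0.063, -0.12 to -0.0089). Hnrnpr, with the other 3′-UTR 6mer, had 672 mimic and 837 scramble reads (-0.32, -0.47 to -0.17). The last 3 of these 4 genes had intervals below 0. The fit on coding length turned Hnrnpm to 0.045, and the fit on length and GC content turned Hnrnpr to 0.22.

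**Figure D2:**
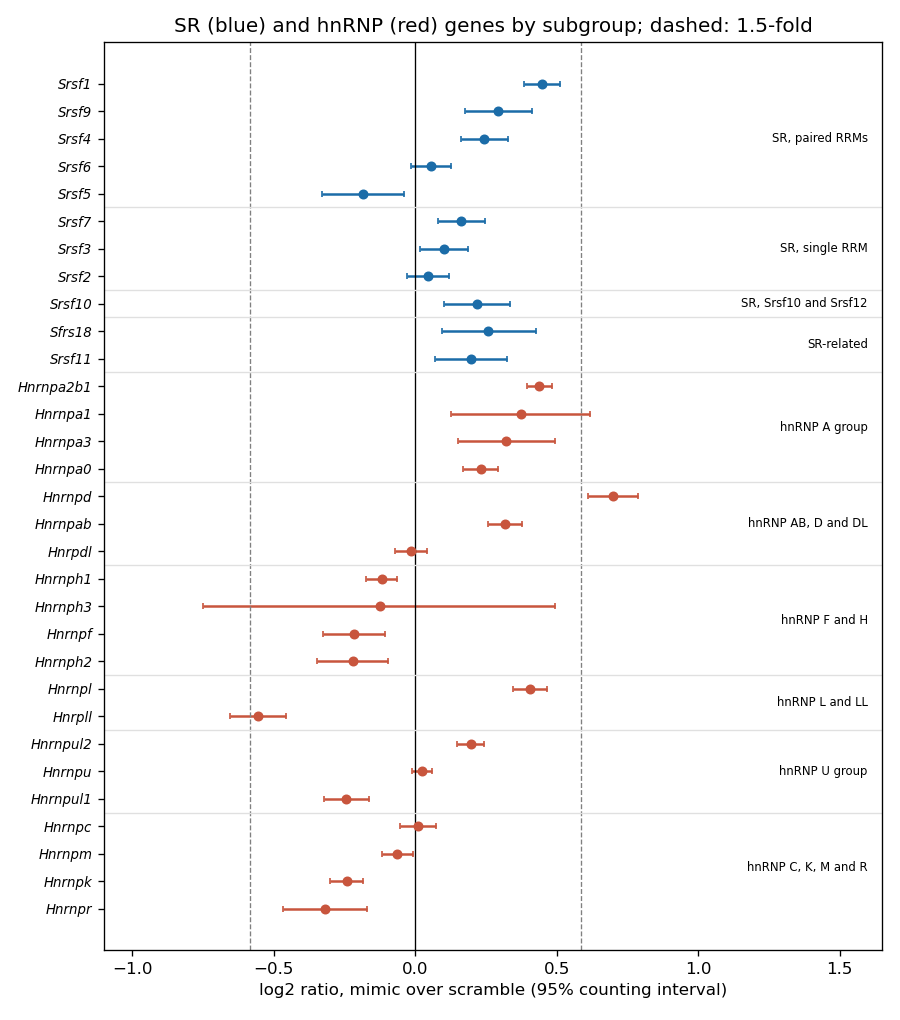
Log2 ratio of mimic to scramble for each of the 31 genes past the filter, with exact 95% intervals that cover counting error only and dashed lines at 1.5-fold. Hnrnpd, at 0.70, is the point past a dashed line, and Hnrpll, at -0.56, is nearest to the lower one.

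The members with a 6mer match did not share a direction. Srsf1 and Srsf9, with the match in the coding region, had log2 ratios of 0.45 and 0.29. Of the genes with the match in the 3′-UTR, Hnrnpa0 had 0.23 and Hnrnpr -0.32. The fit on length and GC content turned the direction of all but Srsf1, to -0.087 for Srsf9, -0.041 for Hnrnpa0 and 0.22 for Hnrnpr. Hnrnpd, with the highest ratio, has no match in a 3′-UTR of 5429 bases.

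Set side by side, the SR genes had a higher median and a narrower spread than the hnRNP genes. The median log2 ratio was 0.20 for SR genes and -0.0028 for hnRNP genes, a difference of 0.20, beside -0.00063 for all tested genes. The interquartile range was 0.17 for SR genes and 0.54 for hnRNP genes, against 0.58 for all tested genes and 0.48 for the 6849 tested genes with at least 1000 reads. Both contrasts were smaller after the fit on coding length, with a median difference of 0.043 and interquartile ranges of 0.35 (SR) and 0.49 (hnRNP). Log2 ratios ran from -0.18 to 0.45 in the SR genes and from -0.56 to 0.70 in the hnRNP genes. Within 1.5-fold lay 30 of 31 members (background 79.2%, or 87.1% of genes with at least 1000 reads). Past 2-fold lay none, in either direction, where 3.96% of all tested genes were higher and 3.08% lower (1.83% and 0.891% of genes with at least 1000 reads). Genes within a list are not replicates, so these medians carry no test.

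**Figure D3:**
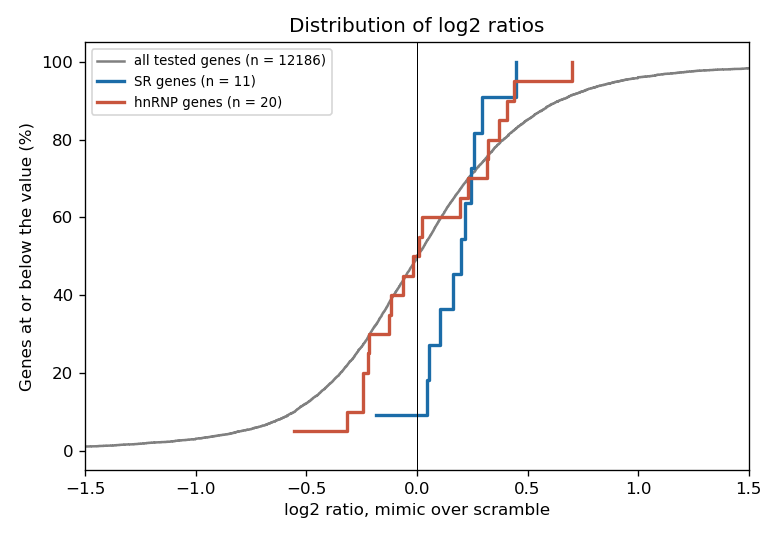
Cumulative share of genes (y axis) against the log2 ratio of mimic to scramble (x axis) for SR genes, hnRNP genes and all tested genes. The SR curve crosses the middle at 0.20, and the other curves cross it near 0.

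Summed reads were higher after the mimic in both families, although the hnRNP median was near 0. SR genes took 23520 reads, 0.126% of the mimic library (95% Clopper-Pearson interval 0.125% to 0.128%), and 20593 reads, 0.110% of the scramble library (0.109% to 0.112%). The log2 ratio of the sums was 0.19 (0.16 to 0.22). The hnRNP genes took 78898 reads, 0.424% (0.421% to 0.426%), and 73969 reads, 0.395% (0.392% to 0.398%), a log2 ratio of 0.092 (0.078 to 0.11). Hnrnpa2b1 alone accounts for 9924 and 7321 of these.

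Transcript length moved with the log2 ratio over the whole table. The Pearson correlation of the log2 ratio with log2 coding length was -0.34 and Spearman's rho was -0.40 over 11767 tested genes, which share both libraries. Over the 31 members they were -0.28 and -0.29. Median coding length was 789 bases for SR genes, 1307 for hnRNP genes and 1416 for all tested genes. After subtraction of a curve fitted on coding length over all these genes, the SR median was 0.039 and the difference from hnRNP genes 0.043. With 3′-UTR length and GC content added, they were 0.077 and 0.084. Of the 20 hnRNP genes, 10 were above 0 without a fit and 10 with either. Hnrnpd kept 0.62 and 0.87 after these fits and Hnrpll -0.50 and -0.44, whereas Srsf3 changed from 0.10 to -0.24 and -0.084. The difference between the families was thus 0.20 without a fit and below 0.1 with either.

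**Figure D4:**
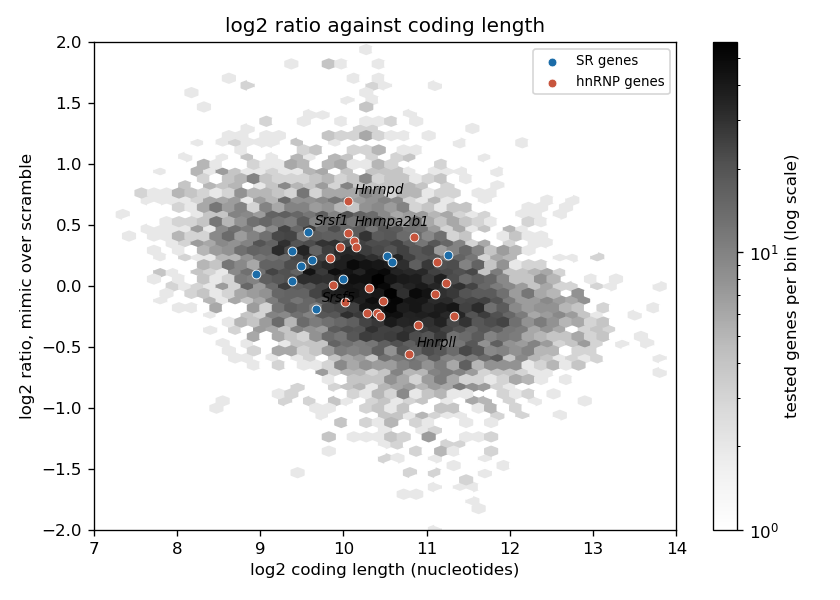
Log2 ratio of mimic to scramble (y axis) against log2 of the annotated coding length in nucleotides (x axis), with all tested genes shaded by density and SR and hnRNP genes as points. The shaded cloud slopes downward, and the SR genes lie mostly at short coding lengths.

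Some of the counts rest on shared or overlapping sequence. Besides Hnrnpf, Hnrnpa1 and Hnrnpa3, the share of 50-base words found in transcripts of other genes was 34.5% for Hnrnpk, 31.5% for Srsf3 and 28.6% for Srsf5. Transcripts of Srsf4 overlapped another annotated gene over 65.4% of their words (Gm12992), those of Srsf2 over 35.2% (Mettl23 and Mfsd11), those of Hnrnpab over 28.8% (Phykpl) and those of Hnrnpm over 28.8% (March2). Whether strand was used in the counting is not given in the sources used here, so reads of overlapping genes may be uncertain. Across the 31 members the shared percentage had a Pearson r of -0.17 and a rho of -0.17 with the log2 ratio, and of -0.19 and -0.19 with the log2 mean RPKM.

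Transcripts annotated for nonsense-mediated decay were more frequent among SR genes than in the whole table, an annotation that does not use the libraries. A transcript marked for nonsense-mediated decay was annotated for 10 of 11 SR genes (90.9%), Srsf10 being the exception, and for 10 of 20 hnRNP genes (50%), against 28.2% of all tested genes. In the lists described below, the share was 80% of SR kinases and import factors, 66.7% of other SR-related proteins and 54.1% of other RNA-binding regulators. It was 39.6% of core spliceosome genes and 25% of nonsense-mediated decay factors. A retained-intron form was annotated for 8 of 11 SR genes (72.7%), 14 of 20 hnRNP genes (70%) and 58.0% of all tested genes. It was commoner in SR kinases and import factors (100%), other SR-related proteins (88.9%), other RNA-binding regulators (78.4%) and core spliceosome genes (77.1%). Of nonsense-mediated decay factors 50% had it, and of tested genes with at least 1000 reads 65.1%. The tables count whole genes, so these forms were not measured apart.

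Other splicing genes gave larger single differences than the members. Among SR-related proteins, 27 genes were tested, with a median log2 ratio of 0.17, and 5 were at least 1.5-fold higher and 0 lower (background 11.7% and 9.11%). Srsf11 and Pnisr, which are SR rows here, were left out of this list. Arglu1, an SR-like regulator whose transcript carries an ultraconserved poison exon, had 886 mimic and 273 scramble reads, a log2 ratio of 1.70 (1.5 to 1.90). Zranb2, a zinc finger SR protein, had 1232 and 584 reads (1.08, 0.93 to 1.22). The lowest was Rnps1, an exon junction protein, with 149 and 212 reads (-0.51, -0.82 to -0.20).

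The 3′-UTRs of Arglu1 and Zranb2 each hold the 7mer-m8 letters. So does that of Bclaf1, which was chosen after its values were seen, making 3 of 27 genes of the list (11.1%, against 1.56% of tested genes with a coding region). Windows are shown because no SR or hnRNP gene had such a match, with the 7mer-m8 in capitals and GRCm38 coordinates of its 7 bases.
Arglu1: gttatactctgtttACTACGTc
Zranb2: cttaccagcagttaACTACGTt
Bclaf1: tttaaaatttgaacACTACGTa
The Arglu1 site (chr8:8666885-8666891, minus strand, exon 4 of 4) starts at base 361 of a 3′-UTR of 2177 bases, and that of Zranb2 (chr3:157547210-157547216, plus strand, exon 11 of 11) at base 577 of 1743. The Bclaf1 site (chr10:20340525-20340531, plus strand, exon 12 of 12) starts at base 468 of 2444 and is an 8mer. Bclaf1 had 1865 and 1661 reads, a log2 ratio of 0.17 (0.070 to 0.26), well under those of the other two. Ddx39b (7246 and 3943 reads, 0.88), Cir1 (58 and 34, 0.77) and Luc7l3 (762 and 478, 0.67), also past 1.5-fold and also chosen after their values were seen, lack the 7mer-m8 letters there, but Ddx39b holds them in its coding region. In the other splicing lists, Magoh (log2 ratio 0.86), Clk2 (0.44), Dhx16 (0.11), Slu7 (0.096), Ddx46 (0.014) and Dhx38 (-0.017) hold them in the coding region. Of these genes only Magoh passed 1.5-fold. The coding region held the 7mer-m8 letters in 4 of 48 core spliceosome genes and 1 of 10 kinases and import factors. It did so in 1 of 12 nonsense-mediated decay factors, 1 of 27 SR-related proteins and 0 of 37 other regulators. The share over all tested genes with a coding region was 4.34%.

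The list of SR protein kinases and import factors, which also holds Tnpo1, had a median log2 ratio of -0.12. Of 10 tested, 0 were at least 1.5-fold higher and 2 were lower (background 11.7% and 9.11%). Tnpo1, an import receptor whose cargoes include hnRNP A proteins, had 724 mimic and 1298 scramble reads (-0.84, -0.98 to -0.71). After the fit on coding length it had -0.69, still past 1.5-fold, and after that on length and GC content -0.41, within 1.5-fold. Srpk1, the cytoplasmic kinase of arginine/serine tails, chosen after its values were seen, had 509 and 895 reads (-0.81, -0.97 to -0.66). Clk3, a nuclear SR kinase, was highest with 1065 and 755 reads (0.50, 0.36 to 0.63).

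Core spliceosome genes and other regulators stayed near 0 as lists. Of 48 core genes, 4 were at least 1.5-fold higher and 3 lower (background 11.7% and 9.11%), with a median log2 ratio of 0.053. U2af1l4, a U2AF subunit relative, had 147 mimic and 68 scramble reads (1.11, 0.69 to 1.55), and a log2 ratio of 0.69 after the fit on length and GC content. Further core genes past 1.5-fold, named after their values were seen, were the Sm protein genes Snrpe (0.83), Snrpd3 (0.72) and Snrpf (0.65) on the higher side and the helicase genes Aqr (-0.65) and Dhx15 (-0.65) on the lower side. Values after the length fits are not given for these further genes, so how far their ratios go with length is not shown. Of 37 other RNA-binding regulators, 1 was at least 1.5-fold higher and 1 lower (background 11.7% and 9.11%), with a median of -0.0046. These were the cold-inducible Rbm3, with 134 and 84 reads (0.67, 0.27 to 1.08; 0.31 and 0.46 after the fits, within 1.5-fold), and Celf1, which binds GU-rich elements, with 476 and 1004 reads (-1.08, -1.24 to -0.92).

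Of 12 nonsense-mediated decay factors tested, 2 were at least 1.5-fold higher and 0 lower (background 11.7% and 9.11%), with a median log2 ratio of 0.046. Magoh, an exon junction complex core gene, had 769 mimic and 423 scramble reads (0.86, 0.69 to 1.04), and it holds the 7mer-m8 letters in its coding region. After the fits on coding length and on length and GC content it had 0.48 and 0.46, within 1.5-fold. Upf3b, named after its values were seen, had 305 and 185 (0.72, 0.45 to 0.99). The kinase gene Smg1 was lowest with 2162 and 3046 reads (-0.50, -0.58 to -0.42), but had -0.11 and 0.10 after those fits.

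The nuclear-retained noncoding RNAs of splicing speckles and paraspeckles differed far more than any member. Malat1, a speckle RNA, had 436 reads after the mimic and 4086 after the scramble, a log2 ratio of -3.23 (-3.37 to -3.09). Neat1, the scaffold of paraspeckles, had 4632 and 2211 reads (1.07, 0.99 to 1.14). The 2 RNAs lay on opposite sides of 0.

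**Figure D5:**
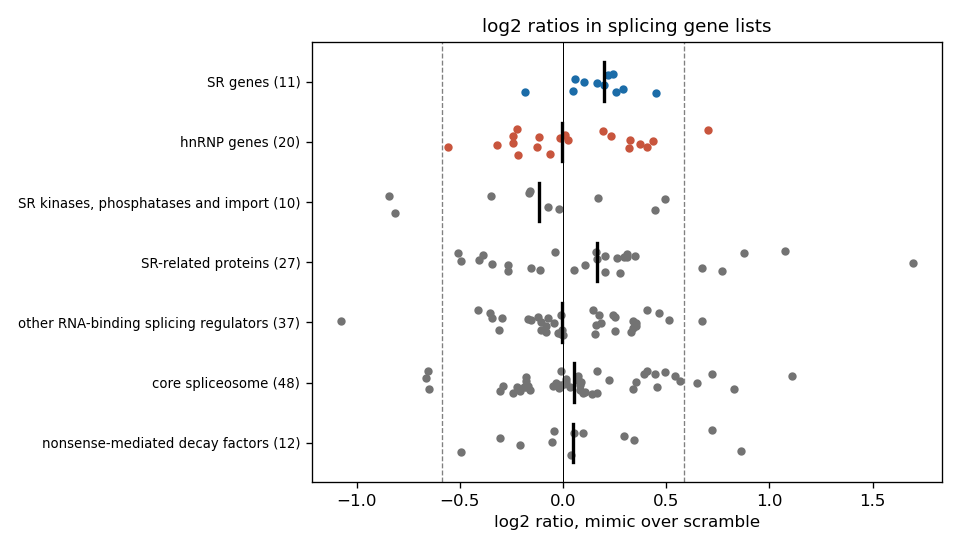
Log2 ratio of mimic to scramble for each tested gene (points) of the SR, hnRNP and other splicing lists, with a bar at each list's median. Medians lie between -0.12 for the SR kinases and import factors and 0.20 for the SR genes, and single genes such as Arglu1 (1.70) and Celf1 (-1.08) lie farther out than any SR or hnRNP gene.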

How the data were processed

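RNA bound to Ago2 was sequenced from TM4 cells, 1 library for the mimic and 1 for the scramble. The values the authors deposited are unnormalized read counts, with a table for each library, and the submitters' processing notes name CASAVA 1.8.2, TopHat2 2.0.8b, HTSeq and mm9, without their roles. Read length, annotation and strand are not given in the sources used here. Summary rows stayed out of library sizes: alignments to more than one place (39.8% and 35.6% of entries in the mimic and scramble libraries), reads outside genes (6.84% and 7.89%) and ambiguous reads (0.653% and 0.585%).

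Genes with at least 20 reads over both libraries were kept and scaled with TMM (edgeR 4.0.16, R 4.3.3; factors 1.0026 and 0.9974). The quasi-likelihood test could not be fitted with 1 library a group, so called means past 1.5-fold (2-fold as an alternative). Each gene's 95% interval was converted from exact Clopper-Pearson limits on the fraction of its reads that were mimic reads. These limits cover counting error only, and PCR reads without molecular identifiers are not independent molecules. Gene models came from GENCODE M21 (GRCm38), matched by symbol for 32 members and 12077 tested genes, 11767 with a coding region. Seed matches were searched in each gene's longest annotated 3′-UTR and longest open reading frame. Scripts used Python 3.11.15 and were tested on simulated data. Named were all members and, of each list, the highest and lowest gene and up to 4 past 2-fold in each direction, with Malat1 and Neat1; some genes are not reported here. The members and lists were chosen with earlier results of these data known. Alternatives were DESeq2 1.42.0 size factors, total counts, median centring, other count filters and length fits.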

Additional observations from a re-analysis of the deposited data

Results flagged for a closer look

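Alignments to more than one place made up 39.8% of all mimic entries and 35.6% of all scramble entries. This row is outside the gene counts used for the SR and hnRNP genes, and it was picked out because its share was higher after the mimic than after the scramble. The entries are not assigned to genes, so how many come from members with near-identical copies, such as Hnrnpa1, Hnrnpa3 and Hnrnpf, was not tested.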

How the results depend on the processing

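No paired analysis was possible because each condition has 1 library, and for the same reason no library could be left out. Across 9 summary results, 65 of 71 alternative values stayed close to the reported ones, with count results within 1.5 times and medians moving by less than the members' median interval half-width (0.085 for SR and 0.063 for hnRNP genes). With no count filter, 1 SR gene, Srsf12, passed 1.5-fold upward, and at 2-fold 0 hnRNP genes did. The scaling alternatives shift all genes alike, so they could not change the difference between the family medians. After the fit on coding length, chosen after seeing the data, the SR median was 0.039 and its difference from the hnRNP median 0.043. After the fit on length and GC content, also chosen after seeing the data, they were 0.077 and 0.084. These fits explained 11.9% and 18.3% of the variance of the log2 ratio. The coding length fit turned the sign of Srsf3 (-0.24), Srsf7 (-0.047) and Hnrnpm (0.045). The fit with GC content turned that of Srsf3 (-0.084), Srsf9 (-0.087), Hnrnpa0 (-0.041), Hnrnpr (0.22) and Smg1 (0.10). Of 216 alternative values for single genes, 171 stayed close and 37 moved without reversing a ratio whose interval excluded 0. The scaling alternatives among them add the same small constant to every gene, so they could hardly move a ratio. All values that moved or reversed came from the length fits. Srsf2 (-0.19 and -0.30), Srsf6 (-0.043) and Hnrnpc (-0.11), whose intervals held 0, went below it. A planned fit on RefSeq protein lengths was not run, since no protein table was used here. Depth limits Hnrnph3, with 44 and 48 reads, and Srsf12.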
